A study of Enchytraeus albidus with 42 samples.

Results

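In the potworm Enchytraeus albidus, 5 transcripts named mads flc-like protein 2 were followed among the 1035 transcripts of an oligonucleotide array. They carry the numbers EAC01049, EAC01066, EAC01087, EAC01098 and EAC01116 in the study's list of pesticide-affected transcripts, and the cDNA clone names Ealb_Pest_P6_F12_SP6_2092122, Ealb_Pest_P7_C2_SP6_2092135, Ealb_Pest_P8_C5_SP6_2090928, Ealb_Pest_P9_A11_SP6_2091066 and Ealb_Pest_P9_F6_SP6_2091032 on the array, in that order. The name is held by 14 of the 225 listed transcripts, and the 5 were chosen with their changes at the highest concentration of dimethoate or carbendazim known. The list itself was made from the 12 comparisons of a pesticide concentration with its control, so the differences in those comparisons are described here without a test.

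Whole-body RNA was taken from adult worms with a well developed clitellum after 2 days in soil. Atrazine, a herbicide, was given at 0.2, 0.5, 3 and 50 mg/kg, and carbendazim, a fungicide that interferes with microtubule assembly, at 0.05, 0.1, 0.5 and 3 mg/kg. Both were brought into the soil with acetone and were set against a solvent control of soil that had received acetone only. Dimethoate, an insecticide that inhibits cholinesterase, was given in water at 0.1, 0.5, 2 and 25 mg/kg and was set against a water control. Within each pesticide these are the concentrations with 10, 20, 50 and 90% effect on reproduction (EC10, EC20, EC50 and EC90). Each of the 14 groups had 3 arrays, and each array held the pooled worms of 1 vessel. In such extracts, fewer cells of a type and less RNA per cell cannot be told apart.

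MADS-box proteins are transcription factors that bind DNA through a conserved domain, the MADS domain. The best known animal members are serum response factor and the MEF2 factors, which act in muscle and in the response to growth signals. The name FLC comes from FLOWERING LOCUS C, a MADS-box protein of plants that represses flowering. The transcripts were named by sequence homology, and what they do in a worm is not known from these data.

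A level is the log2 of the mean processed signal over the spots of a transcript, after a shift that aligned the medians of the arrays. Each transcript had 1 probe, with 11 to 15 usable spots per array for these 5. Levels can be compared between arrays for 1 transcript, but not between transcripts. EAC01049, EAC01066, EAC01116 and EAC01098 were well above background on all 42 arrays and none of their spots was saturated. EAC01087 was well above background on 16 of 42 arrays, so most of its levels are close to the background.

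The 42 arrays lay on 8 slides, which were read in 16 scans on 4 days. Their median levels before alignment ranged over 6.46 to 8.56, and the share of transcripts well detected over 74.8 to 94.5%. The only arrays of 1 scan, dimethoate EC20 replicate 2 and dimethoate EC10 replicate 1, stood apart: the SD of their residuals was 0.84 and 0.89 log2, where the remaining arrays had 0.29 to 0.62. Of 15 muscle transcripts in the study's list 14 were well above background on all arrays, as were 2 of 2 annelid transcripts (lombricine kinase and a hemoglobin linker subunit) and 0 of 1 gut transcript (chymotrypsinogen). The solvent and the water control never shared a slide.

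EAC01049, EAC01066 and EAC01116 were the variable members and moved as a block. EAC01049 spanned 8.94 log2 from the lowest to the highest array, a ratio of 492, EAC01066 spanned 9.02 (a ratio of 518) and EAC01116 8.55 (a ratio of 376). They took places 12, 10 and 15 among the spans of 1035 transcripts, where the median span was 2.16. All 3 were lowest on replicate 3 of the water control and highest on replicate 2 of carbendazim EC90. The spans thus hold groups the members were chosen on, and the places are a description only. EAC01087 and EAC01098 spanned 3.11 and 3.00 log2.

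For EAC01049 the water control arrays had levels of 10.54, 8.07 and 6.41. At dimethoate EC10 they were 11.89, 9.02 and 10.44, at EC20 8.02, 11.30 and 10.03, at EC50 14.47, 12.21 and 13.72, and at EC90 13.62, 12.99 and 13.69. The EC10 and EC20 arrays overlapped with the water control, whereas all EC50 and EC90 arrays were above every water control array. EAC01066 had 13.85, 11.57 and 13.06 at dimethoate EC50 and 12.95, 12.31 and 12.99 at EC90, against 10.01, 7.59 and 5.85 in the water control. EAC01116 had 13.20, 11.03 and 12.06 at EC50 and 12.46, 11.90 and 12.48 at EC90, against 8.94, 7.06 and 5.38 in the water control. In all 3 the water control replicates lay far apart, with SDs of 2.08, 2.09 and 1.78 log2, while the SDs at EC90 were 0.39, 0.38 and 0.33 (n = 3 each).

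At dimethoate EC50 the differences from the water control were 5.12 ± 1.04 log2 (standard error) for EAC01049, 5.01 ± 1.03 for EAC01066 and 4.97 ± 1.01 for EAC01116. At EC90 they were 5.09 ± 1.04, 4.93 ± 1.03 and 5.15 ± 1.01 for the same order of transcripts, which are 34.1, 30.6 and 35.6 times the level of the water control. At EC10 they were 2.11, 2.04 and 2.23, and at EC20 1.44, 1.38 and 1.43, with standard errors of 1.01 to 1.04. The 3 transcripts passed limma's adjusted threshold at EC50, where 1.55% of all transcripts passed in the upward direction, and at EC90, where 2.9% did; the members were chosen on this comparison and the counts are given as a description only. All arrays above all water control arrays, as in these 3, was found for 15.6% of transcripts at EC50 and 14.1% at EC90. At EC10 and EC20 no member lay wholly above the water control, as 3.38% and 5.41% of transcripts did, and at EC20 none lay wholly below it, as 6.67% did. The 1 gut transcript, chymotrypsinogen, had levels of 2.88 to 3.90 at dimethoate EC90 and 1.16 to 1.52 in the water control. Its water control levels were below the lowest well detected transcript on each of those arrays, which had 3.36 to 3.68. On the dimethoate EC90 arrays that lowest transcript had 3.10 to 3.93. The annelid sum was 14.77 to 14.97 at dimethoate EC90 and 14.41 to 14.51 in the water control, and the muscle sum 17.38 to 17.49 and 17.45 to 17.48. The part of the gut, annelid and muscle transcripts in the differences was not tested.

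The size of the difference depended on the water control arrays. One slide held all dimethoate EC50 and EC90 arrays together with water control replicate 3, and within it EAC01049 lay 7.05 log2 higher at EC50 and 7.02 higher at EC90, EAC01066 6.98 and 6.90 and EAC01116 6.72 and 6.90. Without water control replicate 3 the differences at EC90 were 4.13, 3.95 and 4.28 in the order EAC01049, EAC01066 and EAC01116. On the slide with water control replicates 1 and 2, the differences lay between 1.75 and 2.13 at EC10 and between 1.24 and 1.39 at EC20. Without the 2 arrays that stood apart the EC10 differences were 1.35 to 1.44 and the EC20 differences 0.62 to 0.70.

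**Figure D1:**
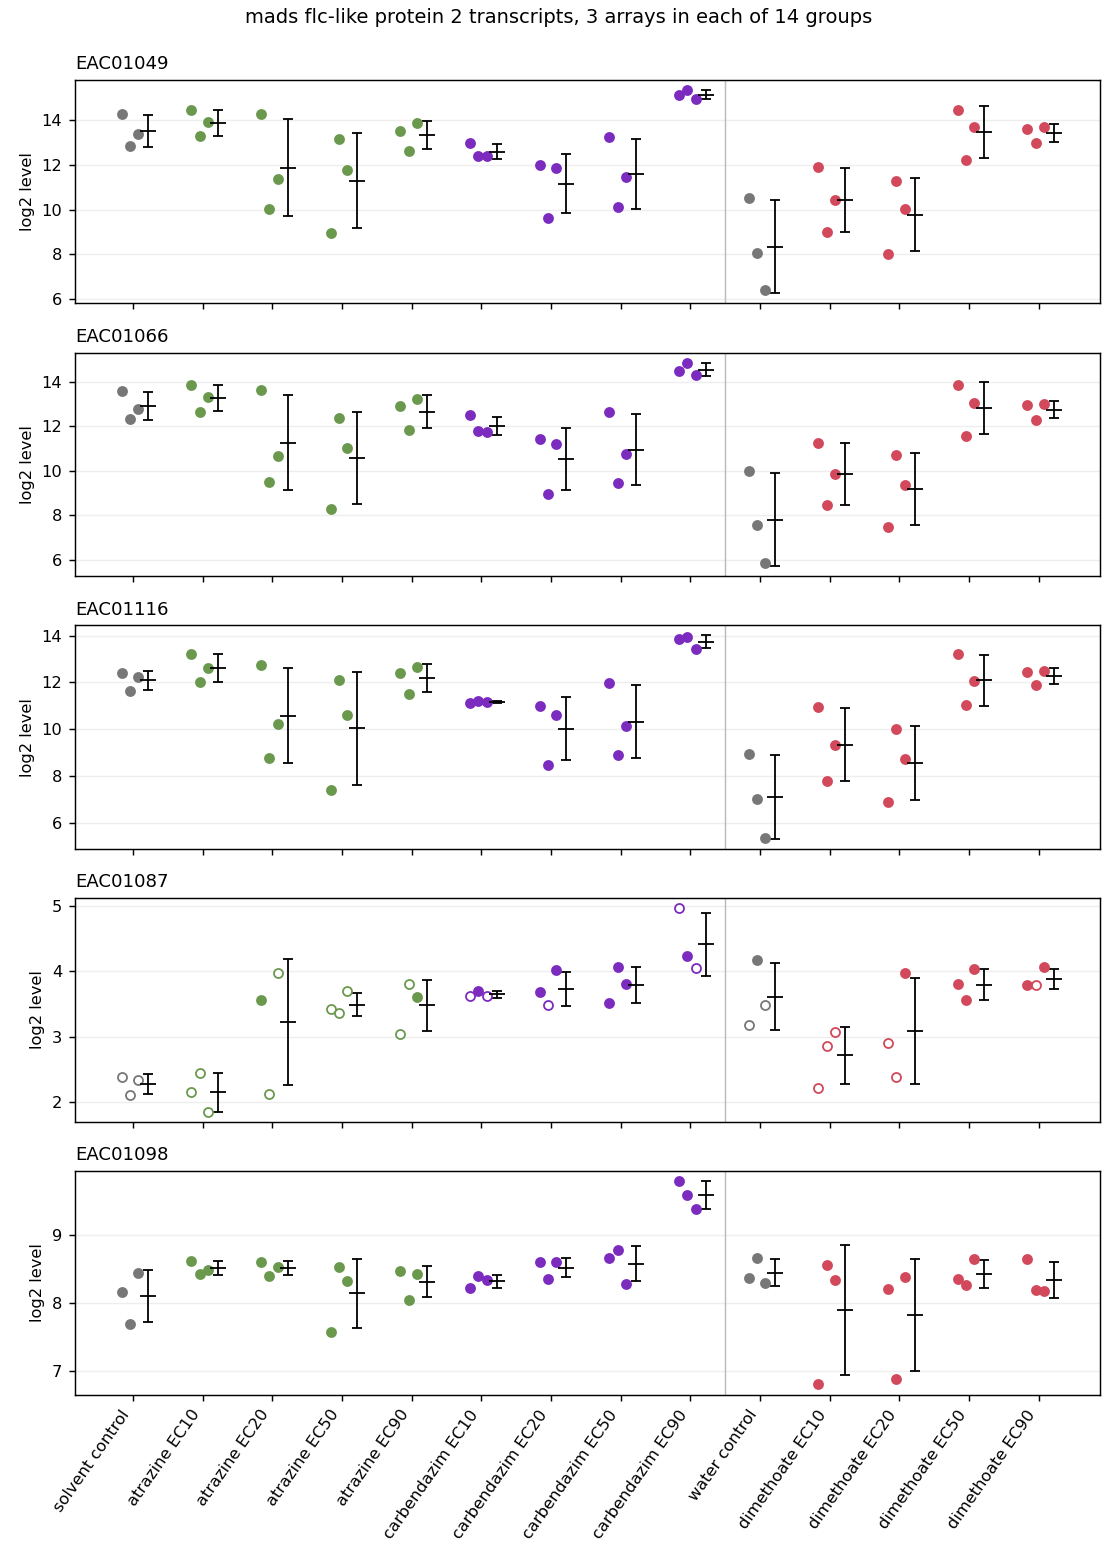
Log2 level of each transcript (vertical axis, a separate scale per panel) on the 3 arrays of each of 14 groups (horizontal axis). Filled points are arrays where the transcript was well above background and hollow points are arrays where it was not. Black marks are the group mean and its SD. EAC01049, EAC01066 and EAC01116 show the same pattern, with the water control lowest and carbendazim EC90 highest, while EAC01098 stands out at carbendazim EC90 only.

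With carbendazim the 3 transcripts lay below the solvent control at the lower concentrations and above it at the highest. EAC01049 had levels of 14.28, 12.84 and 13.40 in the solvent control, 12.97, 12.40 and 12.38 at EC10, 11.98, 9.63 and 11.88 at EC20, 13.25, 10.12 and 11.45 at EC50, and 15.15, 15.35 and 14.94 at EC90. All EC20 arrays were below and all EC90 arrays were above the solvent control, while EC10 and EC50 overlapped with it. EAC01116 alone lay wholly below the solvent control at EC10 with 11.13, 11.22 and 11.17, as 8.99% of transcripts did. EAC01066 had 14.47, 14.87 and 14.31 at EC90, against 13.60, 12.34 and 12.80 in the solvent control. EAC01116 had 13.85, 13.93 and 13.44 at EC90, against 12.42, 11.65 and 12.23 in the solvent control. The 3 carbendazim EC90 arrays were above all 39 other arrays of the series for EAC01049, EAC01066 and EAC01116. How many of all transcripts did so was not counted, and the members were chosen with the changes of this group known.

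The differences from the solvent control were -0.92, -0.89 and -0.93 log2 at carbendazim EC10 for EAC01049, EAC01066 and EAC01116. They were -2.35, -2.38 and -2.06 at EC20, and -1.90, -1.95 and -1.76 at EC50. At EC90 they were 1.64, 1.64 and 1.64, with standard errors of 1.01 to 1.04. None of the 3 passed limma's adjusted threshold at any carbendazim concentration, nor an unadjusted p under 0.05 at EC90, although their arrays did not overlap there. Of all 1035 transcripts 177 had an unadjusted p under 0.05 in limma at carbendazim EC90. That all arrays of a group lay above the solvent control was found for 18.2% of transcripts at carbendazim EC90, and that all lay below it for 11.7% at EC20. On the slide that held solvent control replicate 1 with 2 of the EC90 arrays, the EC90 differences were 0.76, 0.79 and 1.23. Carbendazim EC10 and EC20 shared no slide with the solvent control, so their differences lie wholly between slides. The annelid sum was 15.11 to 15.29 at carbendazim EC90 and 14.38 to 14.73 in the solvent control, and the muscle sum 17.46 to 17.54 and 17.50 to 17.68. The gut transcript had 2.28 to 2.70 and 1.77 to 2.30, below the lowest well detected transcript on each of these arrays. The part of these transcripts in the differences was not tested.

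With atrazine the replicates of the middle concentrations spread widely. EAC01049 had 14.47, 13.30 and 13.91 at EC10, 14.28, 10.01 and 11.35 at EC20, 8.97, 13.14 and 11.76 at EC50, and 13.50, 12.64 and 13.88 at EC90. Every atrazine group overlapped with the solvent control for the 3 transcripts, whereas 5.41% of transcripts lay wholly above it at EC10, 5.7% wholly below it at EC50 and 10.1% wholly below it at EC90. The differences were 0.38, 0.37 and 0.52 log2 at EC10 for EAC01049, EAC01066 and EAC01116, -1.63, -1.64 and -1.51 at EC20, -2.22, -2.34 and -2.05 at EC50, and -0.17, -0.24 and 0.09 at EC90. No member and no other transcript (0%) passed limma's adjusted threshold against the solvent control at any atrazine concentration. At an unadjusted p under 0.05 in limma there were 0, 1, 3 and 1 of 5 members from EC10 to EC90. The 1 at EC20 and the 1 at EC90 were EAC01087, which was higher and is close to background. The 3 at EC50 were EAC01049 and EAC01066, which were lower, and EAC01087, which was higher. Of all 1035 transcripts 31, 54, 104 and 91 had an unadjusted p under 0.05 in limma, and the counts are a description only. The values that follow are those of EAC01049, EAC01066 and EAC01116. With the scan as a random block the EC10 differences turned to -1.11, -1.08 and -0.99, and with single arrays left out EAC01049 lay between -2.83 and -0.69 at EC20 and between -3.14 and -1.06 at EC50. On the slide shared by solvent control replicate 3 and 2 atrazine EC50 arrays the differences at EC50 were -3.04, -3.12 and -3.22.

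**Figure D2:**
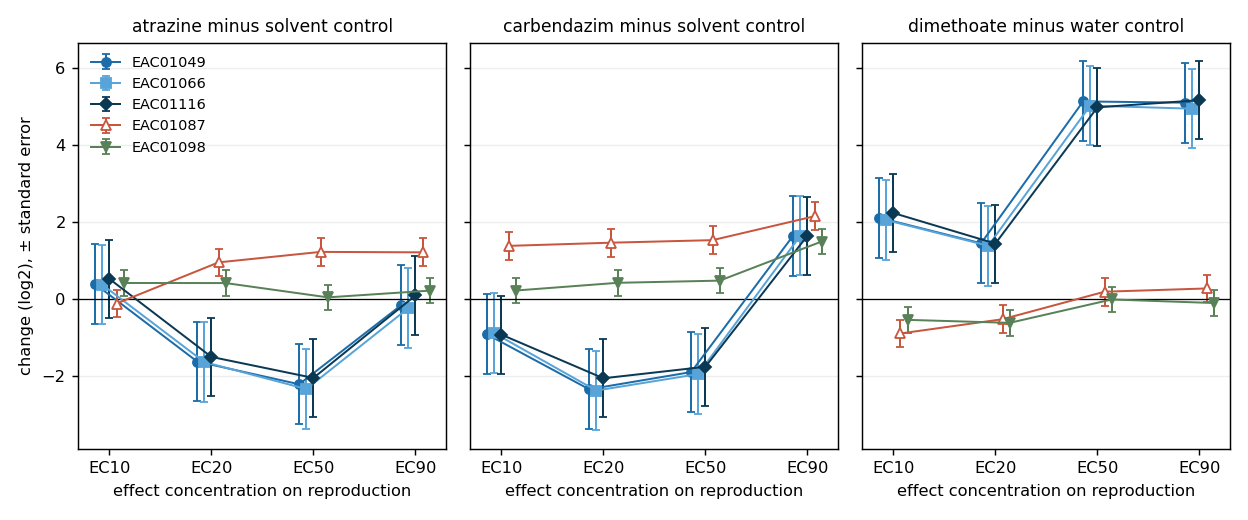
Difference in log2 level from the own control (vertical axis, ± standard error from the fit to all 42 arrays) at the 4 effect concentrations on reproduction (horizontal axis) of atrazine and carbendazim, each against the solvent control, and dimethoate, against the water control. Hollow triangles mark EAC01087, which was near background in most groups. EAC01049, EAC01066 and EAC01116 reached 4.93 to 5.15 at dimethoate EC90 and 1.64 at carbendazim EC90. Lines join the concentrations for reading only.

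The order of the 14 group means was nearly the same in the 3 transcripts. From low to high, the first 8 groups in each were the water control, dimethoate EC20, dimethoate EC10, carbendazim EC20, atrazine EC50, carbendazim EC50, atrazine EC20 and carbendazim EC10. The last 2 places were held by atrazine EC10 and carbendazim EC90. The solvent control, dimethoate EC50, dimethoate EC90 and atrazine EC90 lay between them. Of the 13 pairs of neighbours in that order, 12 overlapped in their arrays in each transcript, and only atrazine EC10 and carbendazim EC90 did not. The dimethoate EC90 mean of EAC01049 was 13.43 and its solvent control mean 13.51, so the groups high against the water control stood at about the height of the solvent control.

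The solvent control was compared with the water control to ask how far acetone-treated soil differed from untreated soil for these transcripts. EAC01049 had 14.28, 12.84 and 13.40 in the solvent control and 10.54, 8.07 and 6.41 in the water control. EAC01066 had 13.60, 12.34 and 12.80 in the solvent control and 10.01, 7.59 and 5.85 in the water control, and EAC01116 had 12.42, 11.65 and 12.23 in the solvent control and 8.94, 7.06 and 5.38 in the water control. All solvent control arrays were above all water control arrays in the 3 transcripts, as they were for 13.8% of all transcripts.

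In limma, EAC01049 was 5.17 ± 1.04 log2 (standard error) higher in the solvent control (adjusted p = 0.00537), EAC01066 5.10 ± 1.03 higher (adjusted p = 0.00537) and EAC01116 4.97 ± 1.01 higher (adjusted p = 0.00537), which are ratios of 35.9, 34.2 and 31.4. Of the 5 members 3 passed upward and 1 downward, where 1.64% and 0.193% of all 1035 transcripts did. EAC01098 had a difference of -0.34 (95% interval -1.02 to 0.33, adjusted p = 0.666). This comparison is not among the 12 the study's list was made from, but both groups' arrays entered those 12, and the low water control arrays are part of the dimethoate differences the 3 transcripts were chosen for. The p-values are thus not independent of the choice.

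The calls rested on 1 array and on how slides were handled. Without water control replicate 3 the differences of the 3 transcripts were 4.20, 4.11 and 4.10 log2 in the order EAC01049, EAC01066 and EAC01116, with an adjusted p of 0.104 for each in limma. With the slide as a fixed block they were 7.12, 6.89 and 6.74, with an adjusted p of 0.293 for each in limma, and 0 of 1035 transcripts passed. With the slide as a random block the adjusted p was 0.00396 for each in limma. As the controls shared no slide, the block works only through slides that hold other groups. Of the muscle and annelid transcripts, 0 of 15 and 0 of 2 passed in limma between the controls, and the summed muscle level was 17.50 to 17.68 in the solvent control and 17.45 to 17.48 in the water control. The annelid sum was 14.38 to 14.73 in the solvent control and 14.41 to 14.51 in the water control. The gut transcript had 1.77 to 2.30 in the solvent control and 1.16 to 1.52 in the water control. It thus lay wholly higher, in the direction of the 3 transcripts, as 13.8% of all transcripts did. Its levels were below the lowest well detected transcript on each of these arrays, which had 3.36 to 4.22. The gut transcript did not pass in limma (0 of 1), and its part in the difference was not tested.

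**Figure D3:**
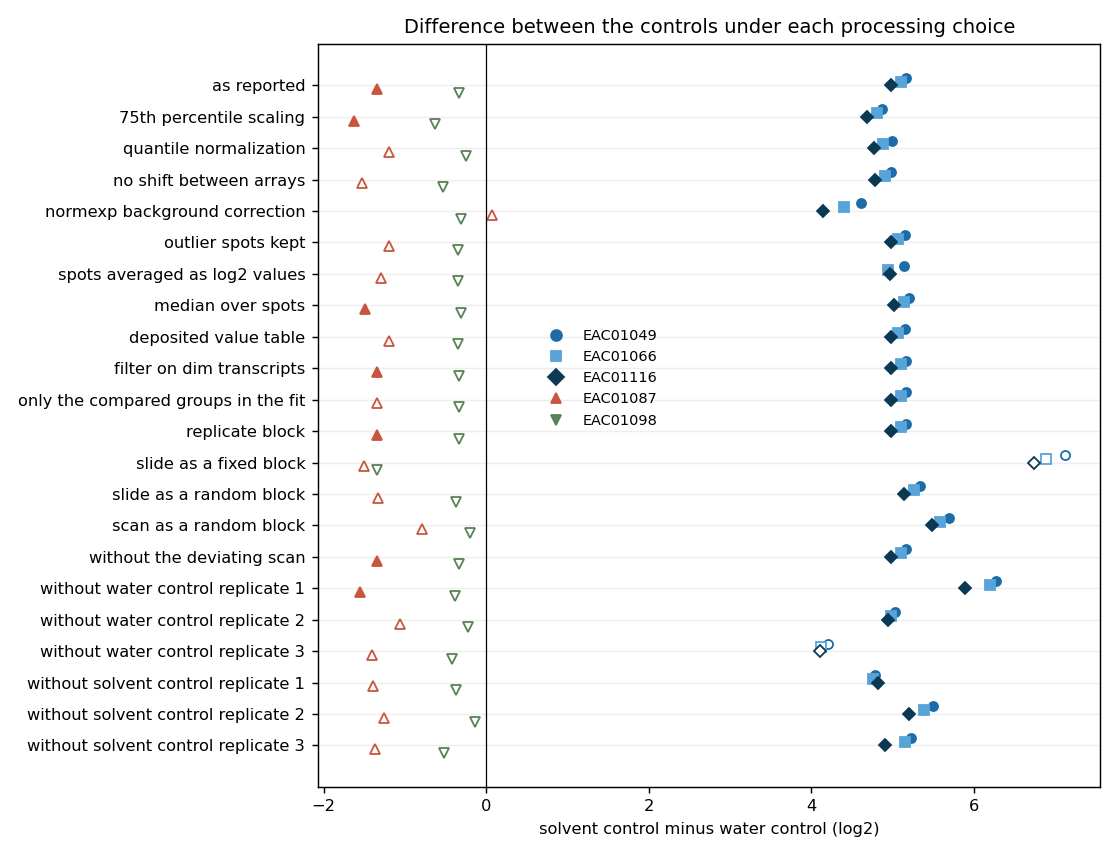
Solvent control minus water control in log2 (horizontal axis) for the 5 transcripts under each processing choice (vertical axis). Filled symbols passed an adjusted p of 0.05 in limma over the transcripts tested and open symbols did not. EAC01049, EAC01066 and EAC01116 stayed at 4.10 or more throughout and were open with the slide as a fixed block and without water control replicate 3.

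Neighbouring concentrations were compared without any control array. The arrays of these groups did enter the 12 comparisons the study's list was made from. The p-values of the neighbour comparisons are thus not independent of the choice. Between dimethoate EC50 and EC20 the difference was 3.68 ± 1.04 log2 for EAC01049 (arrays 14.47, 12.21 and 13.72 at EC50 against 8.02, 11.30 and 10.03 at EC20), 3.64 ± 1.03 for EAC01066 and 3.54 ± 1.01 for EAC01116. All EC50 arrays were above all EC20 arrays for the 3, as they were for 13.4% of all transcripts. The adjusted p was 0.0550 for each in limma and missed the threshold, which 0.966% of transcripts passed. Without the 2 arrays that stood apart it was 0.0506 for each, with differences of 4.44, 4.40 and 4.27. In limma 0 members passed in this comparison, and 3 had an unadjusted p under 0.05, as did 231 of all 1035 transcripts. With the scan as a random block the 3 passed (adjusted p = 0.0129 for each in limma), with differences of 5.06, 5.05 and 4.84. They also passed under 4 other alternatives in scaling, background and filter. With the slide as a fixed block the adjusted p was 0.36 for each in limma, and with the slide as a random block 0.062. Without dimethoate EC50 replicate 1 it was 0.207 for each. Dimethoate EC50 and EC20 shared no slide.

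In the other neighbour comparisons that were tested, which were dimethoate EC20 against EC10, 3 steps of atrazine and carbendazim EC20 against EC10 and EC50 against EC20, 0 members and 0% of all transcripts passed in limma. At an unadjusted p under 0.05 in limma there were 0, 1, 0, 1, 0 and 0 members in that order. Of all 1035 transcripts 11, 54, 48, 61, 7 and 15 were under that p. EAC01049, EAC01066 and EAC01116 had all carbendazim EC20 arrays below all EC10 arrays, as 2.71% of transcripts did, with differences of -1.42, -1.49 and -1.13 log2. The 1 in atrazine EC20 against EC10 was EAC01087 with 1.07 ± 0.36, and the 1 in atrazine EC90 against EC50 was EAC01116 with 2.14 ± 1.01. For the others the intervals were wide, as for EAC01049 in carbendazim EC50 against EC20 with 0.45 (95% interval -1.67 to 2.56). The steps from EC50 to EC90 of dimethoate and of carbendazim hold the groups the members were chosen for. They were -0.03, -0.08 and 0.19 log2 for EAC01049, EAC01066 and EAC01116 in dimethoate, and 3.54, 3.59 and 3.40 in carbendazim.

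The 3 transcripts also moved together within the groups, which the choice of members did not use. Over the 42 arrays Pearson's r was 0.999 between EAC01049 and EAC01066, 0.995 between EAC01049 and EAC01116, and 0.994 between EAC01066 and EAC01116. After each group mean was subtracted r was 0.999, 0.987 and 0.986 for the same pairs. The difference between EAC01049 and EAC01066 had an SD of 0.073 log2 over arrays on which each spanned about 9 log2, and the differences to EAC01116 had SDs of 0.21 and 0.23. EAC01116 thus followed the other pair less closely than EAC01049 and EAC01066 followed each other. For comparison, single spots of 1 array had a median SD of 0.071, 0.057 and 0.049 log2 for EAC01049, EAC01066 and EAC01116, and a level is a mean over 13 to 15 spots. The arrays share library preparation and slide for all transcripts, and whether the 3 probes bind 1 RNA or several was not tested.

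Their spread among replicates was large for this array. The residual SD within groups was 1.35 log2 for EAC01049, 1.34 for EAC01066 and 1.32 for EAC01116, in places 19, 21 and 25 of 1035, where the median transcript had 0.41. The SD of a single group lay between 0.05 and 2.39 for EAC01116 and between 0.21 and 2.18 for EAC01049. The SD exceeded 1 log2 in each of the 3 in the water control, dimethoate EC10, EC20 and EC50, atrazine EC20 and EC50, and carbendazim EC20 and EC50, while carbendazim EC90 had SDs of 0.21, 0.29 and 0.26. The level of the 3 followed neither the median nor the share of well detected transcripts of an array, with r between 0.17 and 0.18 for the median and of 0.02 for the share over 42 arrays.

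**Figure D4:**
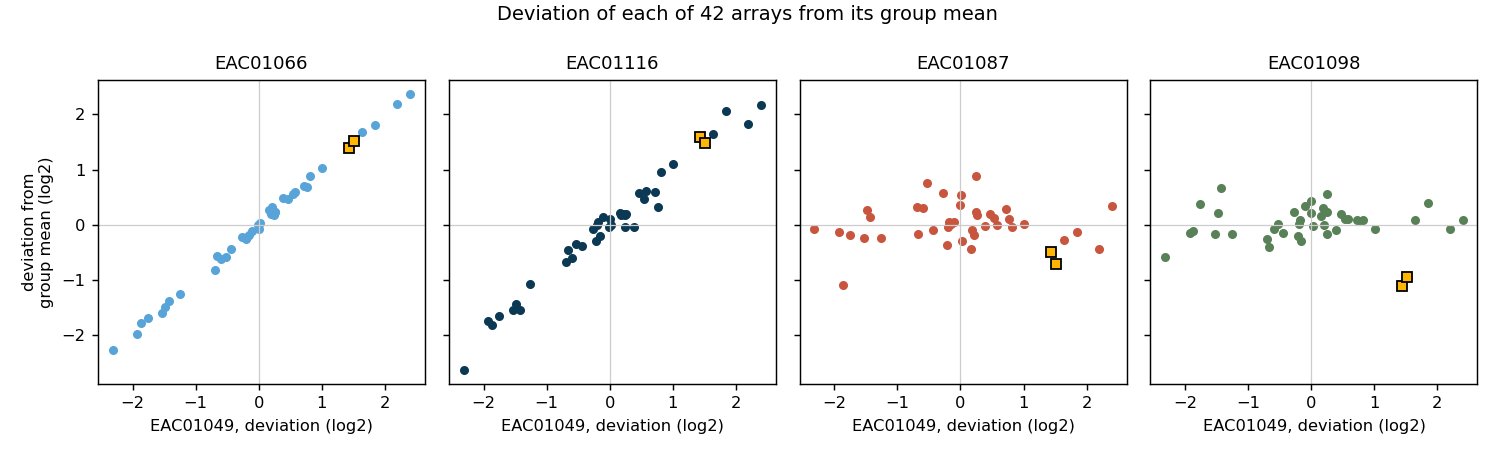
Deviation of each of 42 arrays from its group mean in log2, for EAC01066, EAC01116, EAC01087 and EAC01098 (vertical axes) against EAC01049 (horizontal axes). Yellow squares are the 2 arrays whose residuals stood apart. EAC01066 and EAC01116 lie close to a straight line (r of 0.999 and 0.987), while EAC01087 and EAC01098 do not follow EAC01049 (r of 0.01 and -0.05).

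Outside the 5 members, 4 transcripts had r above 0.9 with each of EAC01049, EAC01066 and EAC01116. The first 3 were the same for each, namely Ealb_Pest_P6_H1_SP6_2092020, Contig167 and Contig135, which the study's list does not name. Ealb_Pest_P6_H1_SP6_2092020 had r = 0.99997 with EAC01066 and ranked all 42 arrays in the same order, with an SD of the difference of 0.018 log2. For Contig167 r was 0.997, 0.998 and 0.990 with EAC01049, EAC01066 and EAC01116, and for Contig135 it was 0.981, 0.978 and 0.982.

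EAC01087 was the faint member. It was well above background on all 3 arrays of dimethoate EC50 and carbendazim EC50 only, and on no array of 4 groups (the solvent control, atrazine EC10, atrazine EC50 and dimethoate EC10). It had 2.38, 2.10 and 2.33 in the solvent control, 3.62, 3.70 and 3.61 at carbendazim EC10, 3.68, 3.49 and 4.01 at EC20, 3.51, 4.07 and 3.80 at EC50, and 4.96, 4.23 and 4.05 at EC90. All arrays of the 4 carbendazim groups were above all solvent control arrays. At carbendazim EC90 only replicate 2 was well above background, and replicate 1, the highest of the series, had 42.9% of its spots above it.

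The differences of EAC01087 from the solvent control were 1.37, 1.46, 1.52 and 2.14 log2 from carbendazim EC10 to EC90, with a standard error of 0.36. Those at EC10 and EC20 lie wholly between slides. The means were 4.42 at EC90 and 2.27 in the solvent control, where the transcript was well above background on 1 of 3 and 0 of 3 arrays, so no fold is given. It passed limma's adjusted threshold at EC50 and EC90, where 0.0966% and 1.93% of transcripts passed upward, and these comparisons were used in the choice. All arrays above the solvent control was found for 12.2, 15.5 and 15.7% of transcripts at EC10, EC20 and EC50. Normexp background correction subtracts the local background, models what remains and adds an offset of 50, which shrinks log2 differences of faint transcripts. With it the differences were -0.22, -0.11, -0.13 and 0.048 from EC10 to EC90, so the sign turned at all but the highest concentration. After such an offset these small values do not settle the direction.

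In atrazine the levels of EAC01087 were 2.15, 2.45 and 1.85 at EC10, 3.56, 2.13 and 3.97 at EC20, 3.42, 3.36 and 3.69 at EC50, and 3.04, 3.80 and 3.60 at EC90. All EC50 and EC90 arrays lay above the solvent control, as for 3.19 and 6.86% of transcripts, but only 1 of these 6 arrays was well above background. The differences from the solvent control were -0.12, 0.95, 1.22 and 1.21 log2 from EC10 to EC90, and with normexp those at EC20, EC50 and EC90 turned to -0.19, -0.051 and -0.15. In dimethoate they were 2.22, 2.85 and 3.06 at EC10, 2.90, 2.37 and 3.97 at EC20, 3.80, 3.56 and 4.03 at EC50, and 3.79, 3.79 and 4.06 at EC90, against 3.18, 4.18 and 3.48 in the water control. The EC10 arrays were below the water control, as for 6.18% of transcripts. The differences from the water control were -0.90, -0.53, 0.18 and 0.27 log2 from EC10 to EC90.

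Between the controls EAC01087 went the other way from EAC01049, EAC01066 and EAC01116. The solvent control had 2.38, 2.10 and 2.33, and the water control 3.18, 4.18 and 3.48. The difference was -1.34 ± 0.36 log2 (adjusted p = 0.0407 in limma), with 0 of 3 solvent control and 1 of 3 water control arrays well above background, so that no fold is given. Over the alternatives other than leaving out an array the adjusted p in limma lay between 0.0144 and 0.901, and with normexp the sign was opposite, at 0.065.

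EAC01098 was well detected and changed little outside 1 group. At carbendazim EC90 its levels were 9.80, 9.59 and 9.40, against 8.17, 7.70 and 8.45 in the solvent control. The 3 arrays were above all 39 other arrays of the series, the highest of which was 8.79. How many of all transcripts did so was not counted. The difference was 1.49 ± 0.33 log2 (standard error), a ratio of 2.80. It passed limma's adjusted threshold, as 1.93% of transcripts did upward. The comparison was used in the choice of members, so the call is a description only. All arrays above the solvent control was found for 18.2% of transcripts. Within the shared slide the difference was 1.43, and without single arrays it lay between 1.28 and 1.66. At carbendazim EC10, EC20 and EC50 the differences were 0.22, 0.42 and 0.47, with all 3 groups overlapping with the solvent control. Between carbendazim EC90 and EC50 the difference was 1.02 ± 0.33, with all EC90 arrays higher, as for 14.6% of transcripts.

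In the remaining groups the means of EAC01098 lay between 7.83 and 8.58. With atrazine the differences from the solvent control were 0.41, 0.41, 0.04 and 0.21 log2 from EC10 to EC90, and with dimethoate those from the water control were -0.55, -0.62, -0.02 and -0.11. The negative values at dimethoate EC10 and EC20 rest on the 2 arrays that stood apart, with levels of 6.80 and 6.88 where the other arrays of these groups had 8.21 to 8.57. Without these arrays they were 0.00 and -0.15. The level of EAC01098 had r = 0.61 with the median signal of the array before alignment over 42 arrays, and that of EAC01087 had r = 0.42.

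EAC01087 and EAC01098 resembled each other less than the other 3 did, with r = 0.54 over 42 arrays and 0.44 without the 2 arrays that stood apart. With EAC01049, EAC01066 and EAC01116 their r lay between 0.05 and 0.33. The transcripts most like EAC01087 were Ealb_Pest_P9_A6_SP6_2091027 (r = 0.850), Contig61 (0.819) and Ealb_Met_P8_C12_SP6_2091161 (0.772), listed as heat shock protein 90, a chaperone. Those most like EAC01098 were P1_A8_T7_1328860 (r = 0.862), listed as a short-chain dehydrogenase, P3_F8_T7_1329708 (0.832) and P2_D8_T7_1328944 (0.828). Without the 2 arrays that stood apart these 3 values were 0.744, 0.676 and 0.663.

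The other 9 transcripts of the same name had levels that spanned 0.89 to 3.90 log2 over the 42 arrays. Their r with EAC01049 lay between -0.56 and 0.21. The median difference of the 9 was -0.06 log2 at dimethoate EC90 and -0.13 at carbendazim EC90, where that of all 1035 transcripts was -0.02 and 0.03. As the 5 were picked out of the 14 with their EC90 changes known, they are not set against the 9 on those values or on their spans. EAC00971 was 1.74 log2 below the water control at dimethoate EC90. EAC01006 was 1.32 below the solvent control at carbendazim EC90 and 1.11 below it at EC50. These 2 were the only ones of the 9 past limma's adjusted threshold in the 12 comparisons. Of all transcripts 0.29% passed downward at dimethoate EC90, 1.84% at carbendazim EC90 and 0.29% at carbendazim EC50. The list that holds the 9 was made from these comparisons, so the calls are a description only. EAC00897 differed by at most 0.97 at an EC90, that of atrazine. All 14 transcripts of the name came from clones labelled Ealb_Pest, which make up 39 of the 225 listed transcripts and 198 of the 1035 on the array.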

How the data were processed

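RNA of 42 pools of worms was labelled with Cy3 and hybridised to 1 custom Agilent array each. The intensities were taken from the deposited scanner files, where Agilent Feature Extraction 10.5.1.1 had already subtracted the background and removed spatial trends for the authors, with no scaling from array to array. Spots marked as outliers (421 to 1070 of 15208 per array) were left out and the remaining spots of a transcript averaged. The log2 of that mean was then aligned by subtracting each array's median deviation from a reference array (shifts of -0.50 to 1.29 log2). The reference was the array with the middle median, carbendazim EC50 replicate 2. A transcript was well above background on an array where at least 50% of its spots were.

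Differences were fitted with limma 3.58.1 (lmFit, eBayes) in R 4.3.3, with a mean for each of 14 groups, 28 residual degrees of freedom and a prior worth 3.94. P-values were adjusted after Benjamini-Hochberg over 1035 transcripts per comparison. All adjusted p-values come from limma, at a threshold of 0.05. Replicates were separate vessels, and precision is limited by having 3 arrays in a group. Among 861 pairs of arrays none held identical values. The processing was tested on simulated arrays. Figures were drawn with matplotlib 3.10.9 in Python 3.11.15.

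The study's list gives names by number and the array by clone, so the 225 listed transcripts were linked through their 12 log2 ratios, used as a key only, with a largest difference of 0.0013 and at least 0.037 for the next candidate. Changes of listed transcripts are therefore alike in list and array by construction, and no value of the list is given. Members, lists and comparisons were chosen with earlier results of these data known. The members are described in full, the other 9 transcripts of the name by counts and the 3 with the largest change at an EC90, and for each member the 3 transcripts with the highest r. Alternatives in scaling, background, spot averaging, filter, blocks and arrays left out were run. The deposited table held the same intensity for every spot as the scanner files. Normexp was run on the median signal of the spots less their local background, with an offset of 50. Probe sequences were not used here.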

Additional observations from a re-analysis of the deposited data

How the results depend on the processing

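The differences of EAC01049, EAC01066 and EAC01116 at dimethoate EC50 and EC90 kept their sign under every alternative run. They moved by more than the spread between replicates only with the slide as a fixed block, to 7.05, 6.98 and 6.72 log2 at EC50 and 7.02, 6.90 and 6.90 at EC90. With arrays left out they lay between 3.95 and 6.22. At carbendazim EC90, EAC01087 differed by 2.54 and EAC01098 by 1.88 with no shift between arrays, and EAC01087 by 0.048 with normexp, which also turned its difference at EC50 to -0.13. Between the controls, EAC01087 missed the threshold with quantile normalization (-1.20), no shift (-1.53), outlier spots kept or the deposited table (-1.20 each), spots averaged as log2 values (-1.30), only the compared groups in the fit (-1.34), the slide as a fixed (-1.51) or random block (-1.34) and the scan as a random block (-0.79), and had the opposite sign with normexp (0.065). EAC01049, EAC01066 and EAC01116 missed it with the slide as a fixed block (7.12, 6.89 and 6.74), where 0 members passed. With arrays left out the 4 differences ranged over 4.20 to 6.27 (EAC01049), 4.11 to 6.19 (EAC01066), 4.10 to 5.88 (EAC01116) and -1.56 to -1.06 (EAC01087), and 0 to 4 members passed. EAC01087 missed the threshold in 5 of 6 such fits, and the other 3 did so without water control replicate 3. In the methods' test on the same values 4 members passed unadjusted and 0 after Benjamini-Hochberg, where 154 and 0 of 1035 transcripts passed.

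Between dimethoate EC50 and EC20, 3 members passed with 75th percentile scaling, quantile normalization, normexp, the filter on dim transcripts and the scan as a random block. With arrays left out 0 to 4 passed there (4 without dimethoate EC20 replicate 3), and 0 to 1 between atrazine EC20 and EC10 (1 without atrazine EC20 replicate 2). Samples with the same replicate number did not deviate together (median r of 0.01 over 273 pairs, and -0.0035 over 546 pairs with different numbers), so the numbers do not pair them. With the replicate number as a block the differences between the controls were 5.17, 5.10 and 4.97 for EAC01049, EAC01066 and EAC01116, and 4 members passed, as without it. EAC01087 was well above background on 7 arrays when all spots had to be, and on 16 when at least 50% had to be. The 3 transcripts most like EAC01049, EAC01066 and EAC01116 were the same over group means or by Spearman's rho, whereas of those of EAC01098 1 and 0 were shared. Normexp with the mean signal of the spots was not run, since the scanner output held no such column. Slides held only some groups each, so slide and treatment were partly confounded, and 3 arrays per group leave wide intervals for single comparisons.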
